A study of Rattus norvegicus with 26 samples.

Results

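The 3c3 cells after 6 days of smooth muscle differentiation were set against RNA of primary smooth muscle cells (SMC), gene by gene, on 5 of the 26 microarrays of the study. The members were taken by label: the 2 arrays of primary SMC, and the 3 arrays of clone 3c3 on day 6 (d6). 3c3 is a clone of rat multipotent adult progenitor cells (rMAPC), which were grown out of bone marrow and express *Oct4* (*Pou5f1*). The labels give a female Fischer rat and the age E18. On d6 the cells had been cultured with TGF-β and PDGF-BB in basal medium, and the d0 arrays of 3c3 used beside them are undifferentiated cells of the same clone. The primary SMC arrays are labelled as commercial rat aortic RNA, while the design text speaks of primary smooth muscle cells and a further part of the study of cultured aortic cells. No strain, sex, age or culture time is given for that RNA, and nothing says that its 2 arrays came from separate cultures or animals. 3c3 is 1 clone and its 3 arrays carry replicate numbers. The p-values below come from a fit of all 26 arrays in 9 groups. They measure the spread between arrays of a group, pooled over all groups, which may be technical. The 3 d6 arrays of the rMAPC clone Cl19, labelled with a Fischer female and an age of 3 week, were used where the same gap was set side by side for another clone.

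Smooth muscle cells of the arterial wall contract with a machinery of smooth muscle myosin, actin, tropomyosin, calponin and transgelin, and they lay down the elastic fibres and collagens of the wall. Genes of this machinery are switched on by serum response factor (SRF), which binds a short A/T-rich element called the CArG box, together with myocardin and its relatives. In culture, primary SMC lose part of this programme and divide. Progenitors given TGF-β and PDGF-BB take up the programme from a state in which embryonic and endodermal genes are active, and the comparison asks which smooth muscle genes were still lower at d6 and which genes of other lineages were present.

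Levels are quantile-normalized log2 intensities, and a gene is represented by its probe with the highest mean level over the 26 arrays. Levels of different genes are not comparable, because probes differ in brightness. A gene entered the test where it was well above background, the scanner software's call, on every array of primary SMC or of 3c3 d6, and was called where the Benjamini-Hochberg adjusted p of limma was below 0.05 and the difference was at least 2 on the log2 scale (4-fold). Where the dimmer group was not above background on all of its arrays, the fold is a lower bound, written as "at least", against the lowest signal that counted as above background on those arrays. Primary SMC were hybridised on other slides and scanned on another day than 3c3, so slide, scan day and cell source cannot be told apart, and differences under 4-fold were not called. The primary SMC arrays had 43.6% and 44.5% of probes well above background, and the 3c3 d6 arrays 56.0%, 56.9% and 43.2%. Replicate 3 of 3c3 was on a slide with a higher background than the others. Over all probes tested, 3831 (19.0%) were called higher in primary SMC and 3893 (19.3%) higher in 3c3 d6, and without replicate 3 of d6 3837 and 5045. The array labelled Cl19 d2 replicate 1 correlated best with a 3c3 array (r = 0.995, against 0.971 with the nearest Cl19 array). It entered here only through the spread shared by all groups, and without it 3830 and 3895 probes were called. The median SD of a probe was 0.07 between the 2 primary SMC arrays and 0.29 between the 3 d6 arrays. In RNA of whole cultures, fewer cells of a type and less RNA per cell cannot be told apart.

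The 2 cell sources were far apart. Of 10750 genes tested among 17310 on the array by name, 1709 (15.9%) were called higher in primary SMC and 2026 (18.8%) higher in 3c3 d6, with a median difference of -0.11 over all genes tested. Of these, 8238 genes had all 5 arrays well above background, of which 857 (10.4%) were called higher in primary SMC and 841 (10.2%) higher in 3c3 d6. A gene that passed the filter through 1 group alone is low in the other by selection. Such genes raise the share called in a list, so they are counted separately below, and the counts over genes measured in both groups are read against the 10.4% and 10.2%. In terms of presence, 356 genes (2.06%) were above background on both primary SMC arrays and on none of d6, and 1165 (6.73%) on all 3 d6 arrays and on neither of primary SMC. Over probes these counts were 792 and 2526, and without replicate 3 of d6 they were 797 and 4951. Across the probes tested, the primary SMC arrays correlated with the d6 arrays at r between 0.617 and 0.644 and with the undifferentiated 3c3 arrays at r between 0.633 and 0.640, against 0.989 with each other. These probes were chosen by their signal in primary SMC or d6 and not at d0, so the d6 and d0 values cannot be ranked against each other. These correlations share the arrays and probes and describe the arrays only. Of the 190 tested genes described below, 57 had several probes tested. No called gene had a further probe called the other way. In 7 called genes, *Ednra*, *Col4a1*, *Lin28a*, *Flt1*, *Ptprb*, *Ccne2* and *Atp9b*, a further probe was not called, and in 7 genes that were not called, *Smtn*, *Tpm1*, *Actn1*, *Gata6*, *Hnf4a*, *Pkp2* and *B2m*, a further probe was.

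**Figure D1:**
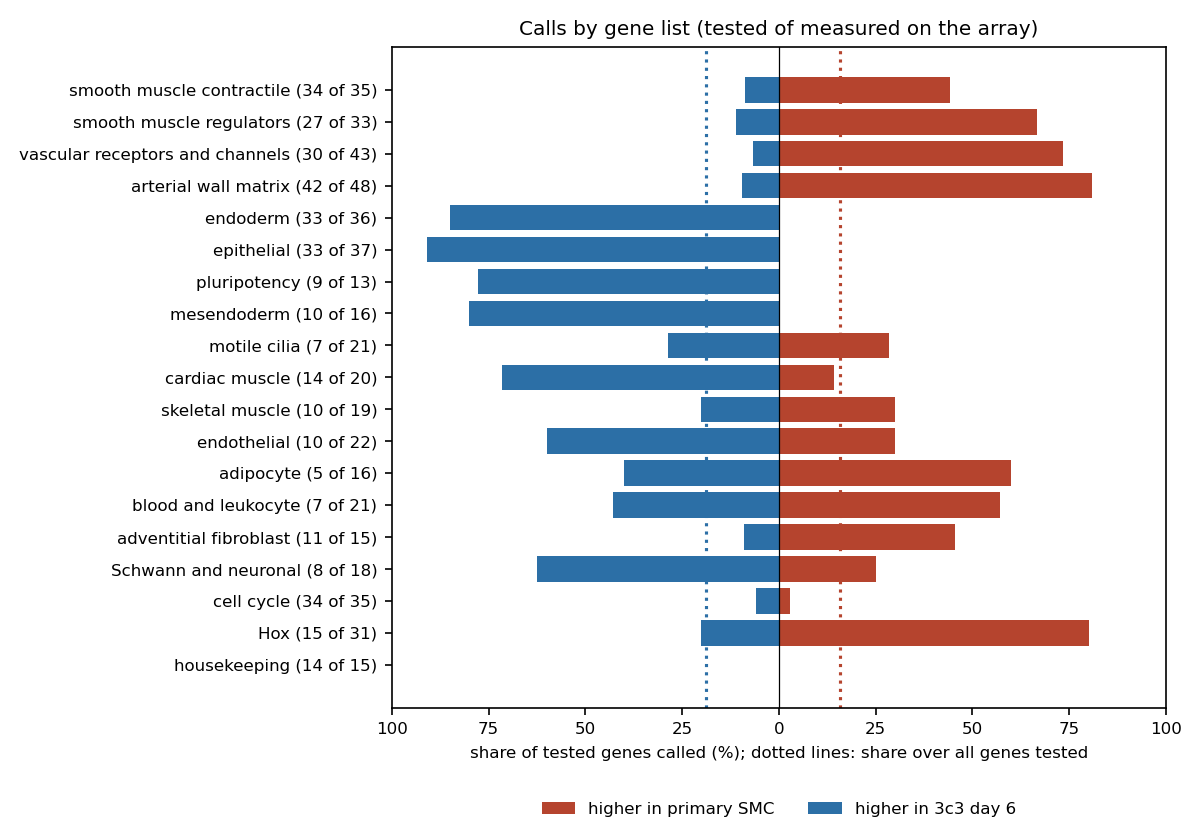
For each gene list, bars show the percentage of its tested genes called higher in primary SMC (red) or in 3c3 d6 (blue), beside the same over all 10750 genes tested, including genes that passed the filter through 1 group alone. The arterial wall matrix list had 81.0% higher in primary SMC and the epithelial list 90.9% higher in 3c3 d6, while no housekeeping gene of 14 was called.

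All 5 smooth muscle markers were above background on both primary SMC arrays. At d6, 3 of them were within 4-fold of the primary SMC level and 2 were not. *Tagln*, which encodes the actin-binding protein SM22α, read 16.29 and 16.25 on the primary SMC arrays and 15.24, 14.59 and 14.50 on the d6 arrays (probe at chr8:48902736-48903116, rn4). All 5 arrays were bright, and the groups did not overlap. The difference of 1.49 (SE 0.37, adjusted p = 0.00114) was under the 4-fold limit, and scaling by the 75th percentile instead of quantiles moved it to 3.22 and into the calls, while the median over all probes moved from 0.02 to 0.19. *Cnn1*, which encodes basic calponin (chr8:21219991-21220050), read 11.81 and 11.80 in primary SMC and 11.40, 10.88 and 11.07 at d6, a difference of 0.69 (SE 0.21, adjusted p = 0.00542). *Smtn*, encoding smoothelin, an actin-associated protein of contractile SMC (chr14:84160797-84160856), read 13.52 and 13.49 against 12.03, 11.88 and 11.77, a difference of 1.61 (SE 0.26, adjusted p = 1.37e-05) that reached 2.26 and was called under the 75th percentile scaling. A second probe of *Smtn* differed by 2.01 and was called. For all 3 genes every primary SMC array lay above every d6 array, by less than 4-fold on average.

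*Myh11*, the smooth muscle myosin heavy chain and the most restricted of the markers (chr10:769508-769567), read 10.45 and 10.47 in primary SMC and 5.54, 5.35 and 5.57 at d6. The d6 arrays were above background but lay close together and far below both primary SMC arrays. The difference was 4.97 (SE 0.22, 31.4-fold, adjusted p = 1.05e-13). A second probe of *Myh11* had a narrower difference of 2.56 and was called too. The d0 arrays of 3c3 averaged 5.87 ± 0.29 (SD, n = 3) and the d6 arrays 5.49 ± 0.12, so the gap to primary SMC was about as wide at d6 as at the start. *Smarcd3*, which encodes the SWI/SNF subunit Baf60c (chr4:5959631-5959690), read 14.62 and 14.65 in primary SMC and 12.38, 11.28 and 11.63 at d6, 7.32-fold lower (difference 2.87, SE 0.53, adjusted p = 5.98e-05). Its d0 mean was 6.49 ± 0.18, so the d6 level lay between the start and primary SMC. The groups did not overlap for either gene.

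The contractile list as a whole was split. Of 36 genes listed, 35 were on the array and 34 were tested. Of the 34, 15 were higher in primary SMC, 3 were higher in 3c3 d6 and 16 were not called, with a median difference of 1.77 against -0.11 over all genes. The percentage higher in primary SMC was 44.1, against a background of 15.9% of all genes tested. Of the tested genes 5 had entered through primary SMC alone and 2 through 3c3 d6 alone. Of the 27 genes measured in both groups, 10 were called higher in primary SMC and 1 in 3c3 d6, against 10.4% and 10.2% of all genes measured in both. Under the 75th percentile scaling the list had 20 genes called higher in primary SMC, with *Tagln*, *Smtn*, *Myl6*, *Flna* and *Actn1* added.

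The contractile genes lower at d6 included a smooth muscle actin, the myosin light chain kinase and leiomodin. *Actg2*, the enteric γ smooth muscle actin, read 12.03 and 11.97 in primary SMC and 7.03, 6.70 and 6.69 at d6, 36.5-fold lower (adjusted p = 1.09e-10). *Mylk*, the kinase that phosphorylates the myosin light chain, read 6.32 and 6.07 in primary SMC and was not well above background on any d6 array, a difference of at least 10.3-fold (adjusted p = 5.21e-07). *Lmod1*, leiomodin, an actin filament nucleator of smooth muscle, read 9.50 and 9.54 against 5.21, 4.12 and 4.05, at least 32.02-fold lower with 2 of 3 d6 arrays above background (adjusted p = 4.67e-10). For these 3 genes the primary SMC arrays stood well clear of the d6 arrays. The largest fitted difference of the list was that of *Pgm5* (aciculin, a protein of adherens junctions), with 10.44 and 10.51 in primary SMC and no d6 array above background (at least 189-fold, adjusted p = 8.96e-12). *Itga8*, an integrin α chain of SMC, was at least 16.9-fold higher in primary SMC. *Synpo2*, a Z-disc-associated actin-bundling protein, was at least 18.3-fold higher, with 2 of 3 d6 arrays above background. *Mustn1*, a small protein of muscle and skeleton, was 47.2-fold higher, *Fhl1*, a LIM-domain protein of muscle, 28.6-fold, *Ppp1r14a*, the myosin phosphatase inhibitor CPI-17, 21.9-fold, and *Jph2*, which ties the sarcoplasmic reticulum to the cell membrane, 20.2-fold. A group with more moderate gaps held *Itga7*, the laminin-binding integrin α7 (8.07-fold), *Tpm2*, β-tropomyosin (7.91-fold), *Myl9*, the regulatory myosin light chain (7.58-fold), and *Cnn2*, calponin 2 (5.99-fold). *Tpm2* and *Myl9* were bright at d6, with 15.49, 13.71 and 14.23 and 14.60, 13.09 and 13.45 against 17.45 and 17.47 and 16.64 and 16.64 in primary SMC. The largest adjusted p among the 15 genes was 1.04e-04.

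The 16 contractile genes not called included genes of the general actin cytoskeleton. *Tpm1*, α-tropomyosin, differed by 0.14 (SE 0.29), but its 4 probes ran from -0.85 to 3.11 and 1 of them was called higher in primary SMC. *Cald1*, caldesmon, differed by 0.18 (SE 0.24) and *Csrp1*, a LIM protein of smooth muscle, by 0.17 (SE 0.28). *Vcl*, vinculin, differed by 1.14 (SE 0.19), *Flna*, filamin A, by 1.85 (SE 0.21) and *Actn1*, α-actinin 1, by 1.86 (SE 0.17). The 3 probes of *Actn1* ran from 1.86 to 3.54, 2 of them were called, and their mean of 2.54 was called too. *Des*, which encodes the muscle intermediate filament desmin, read 6.80 and 6.34 in primary SMC and 8.58, 6.64 and 7.29 at d6, so the groups overlapped (-0.94, SE 0.60, adjusted p = 0.161). *Nexn*, an actin-binding protein of muscle, was brighter at d6, with 11.56, 11.40 and 11.22 against 9.45 and 9.51, a difference of -1.91 (SE 0.17, adjusted p = 4.19e-09) just under the limit. It passed the limit without replicate 3 of d6 (-2.001). *Flna* and *Actn1* lay just under the limit on the other side, *Actn1* passing it without replicate 1 of d6 (2.02), and *Cnn2*, at 2.58, was the called gene nearest to it. The 3 genes of the list higher at d6 were *Tes*, testin, a focal adhesion protein (16.00-fold), *Sncg*, γ-synuclein (at least 6.72-fold) and *Ppp1r12b*, a myosin phosphatase targeting subunit. *Ppp1r12b* was not above background in primary SMC and dim at d6, with 4.17, 4.59 and 4.50, its bound was only at least 1.39-fold, and it was not called when levels were floored at the lowest signal above background (-0.47).

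**Figure D2:**
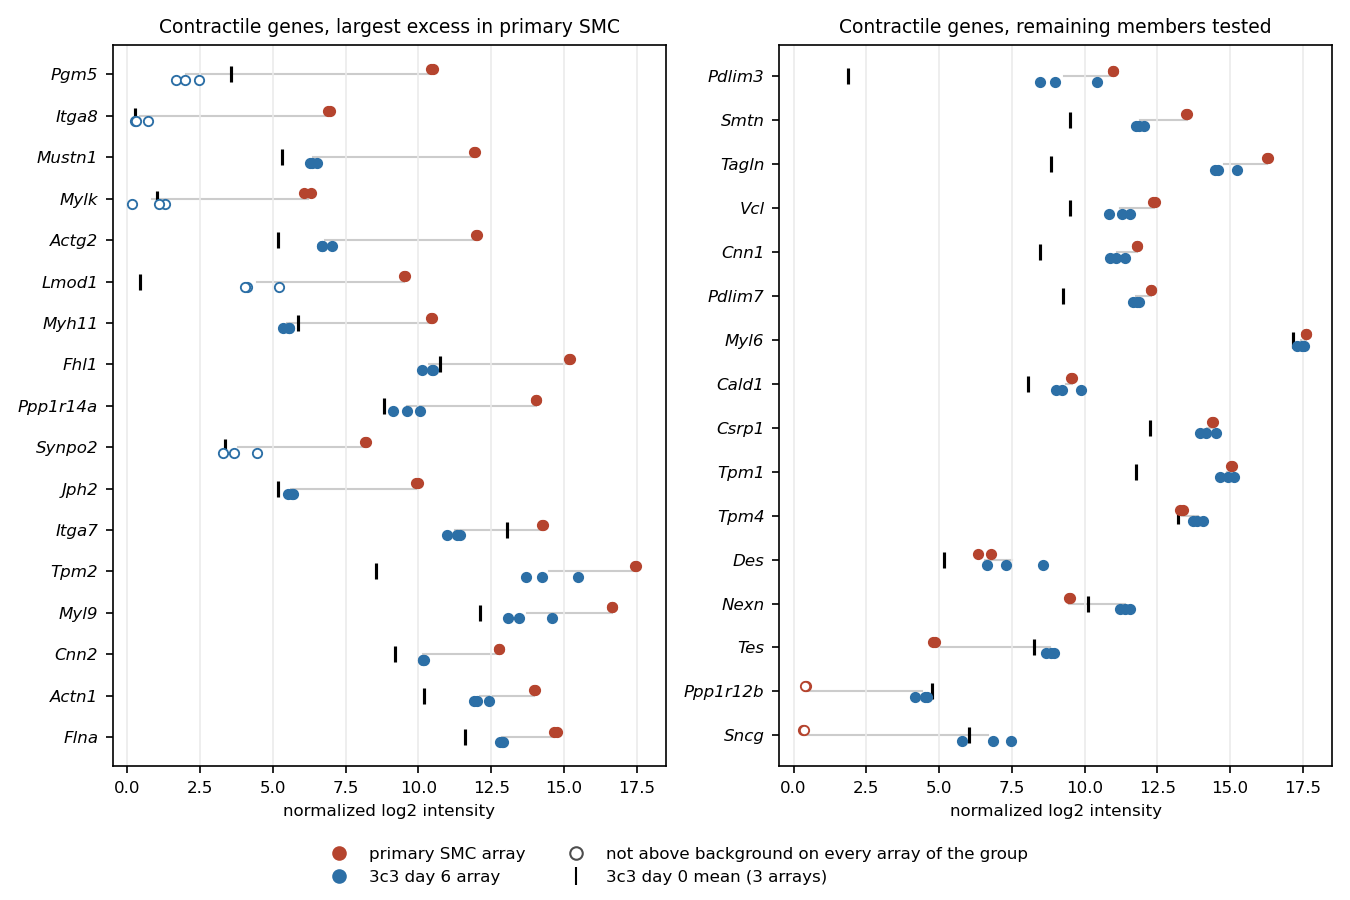
Normalized log2 intensity of contractile genes on the 2 primary SMC arrays (red) and the 3 d6 arrays of 3c3 (blue), ordered by difference, with open points where the group was not above background on all of its arrays. Black bars are the mean of the 3 undifferentiated 3c3 arrays. The left panel holds genes with wide gaps such as *Pgm5* and *Myh11*, and the right panel close pairs such as *Tpm1* and *Cald1*, with *Tes*, *Ppp1r12b* and *Sncg* at its foot higher at d6.

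The CArG box, the element bound by SRF, was searched for by name on both strands in promoters of the RefSeq table (GRCr8), from 250 bases before to 50 after each start. It was present in 2 of the 28 contractile promoters in the table (7.14%) and in 485 of all 27457 promoters (1.77%). The share was 8.0% for the regulator list (2 of 25), 11.1% for the cardiac (2 of 18) and 11.8% for the skeletal muscle list (2 of 17). It was 1.52% for genes called higher in primary SMC and 1.73% for genes called higher in 3c3 d6, against 1.38% of genes tested. Boxes of some of these genes are shown, each with its 10 letters in capitals and its flanks in lower case, 5′ to 3′ on the gene's strand. The first 2 belong to called contractile genes and the others to *Srf*, which encodes the factor itself and differed little, and to *Myl3*, a ventricular myosin light chain present at d6.
*Cnn2* (chr7:10370364-10370393, minus strand): cgcttccacgCCTTATAAGGgcatttgccc
*Fhl1* (chrX:139638384-139638413, plus strand): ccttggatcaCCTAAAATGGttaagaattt
*Srf* (chr9:21923985-21924014, plus strand): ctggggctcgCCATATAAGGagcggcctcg
*Srf* (chr9:21924005-21924034, plus strand): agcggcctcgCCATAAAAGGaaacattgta
*Myl3* (chr8:119616987-119617016, plus strand): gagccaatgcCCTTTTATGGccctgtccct
The box of *Cnn2* began 71 bases and that of *Fhl1* 102 bases before the start, the pair of *Srf* 81 and 61 bases before it, and that of *Myl3* 97 bases before it. *Cnn2* and *Fhl1* were both higher in primary SMC, *Srf* was not called and *Myl3* was higher in 3c3 d6. The promoters of *Tagln*, *Myh11*, *Myl9*, *Lmod1*, *Pdlim3*, *Itga7* and *Lpp* are not in the table. A match is a description of the letters, and no match says only that these letters are not in this window.

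The transcription factors of smooth muscle and its precursors held genes read in primary SMC alone, such as myocardin, and genes read in both groups, such as SRF. Of 35 regulators listed, 33 were on the array and 27 were tested, of which 18 (66.7%) were higher in primary SMC, 3 higher in 3c3 d6 and 6 not called (median 4.28). Of the 27, 13 had entered through primary SMC alone and 12 were measured in both groups. Of those 12, 5 were higher in primary SMC and 1 in 3c3 d6, against 10.4% and 10.2% of all genes so measured. *Myocd*, the SRF coactivator that drives the contractile genes, read 7.18 and 6.89 in primary SMC and was above background on no d6 array (at least 18.4-fold higher in primary SMC, adjusted p = 1.16e-11). With normexp background correction *Myocd* was not called (1.45). Its partner *Srf* was present in both, at 12.90 and 12.87 in primary SMC and 13.87, 13.59 and 13.50 at d6, a difference of -0.77 (SE 0.19). *Mrtfa*, a myocardin-related coactivator, differed by 0.36 (SE 0.14). Both SRF and this relative of myocardin were therefore read at d6, while *Myocd* was not.

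The regulators with the widest gaps were factors of mesenchyme and mural cells. *Tbx18*, a T-box factor of mural cell precursors, read 10.21 and 10.21 in primary SMC and 2.27, 0.21 and 0.28 at d6, with 1 of 3 d6 arrays above background, and was at least 164-fold higher in primary SMC (adjusted p = 8.97e-12). *Prrx1*, a homeobox factor of mesenchyme, was at least 129.7-fold higher, *Foxc1*, a forkhead factor of paraxial and vascular mesoderm, at least 124-fold and *Hey2*, a Notch target of arterial cells, at least 77.9-fold. *Twist1*, a driver of the mesenchymal state, was measured in both groups, at 10.29 and 10.25 against 3.92, 3.05 and 4.38 (89.9-fold higher in primary SMC). *Zeb1*, *Zeb2*, *Snai2* and *Twist2*, the other factors of that class on the list, were also called higher in primary SMC, by at least 51.1-fold, at least 8.71-fold, at least 3.18-fold and at least 32.6-fold, the call of *Snai2* being lost with the floor (1.67). At d6, *Hey2*, *Zeb1* and *Twist2* were above background on 2 of 3 arrays and *Foxc1* on 1. The largest adjusted p of the 18 was 9.95e-04. *Klf5*, a factor of epithelium and of dividing SMC, was at least 279.8-fold higher at d6, with 1 of 2 primary SMC arrays above background. *Klf4*, which holds back contractile genes in SMC, read 10.05 and 10.00 in primary SMC and 11.75, 12.60 and 11.97 at d6. Its difference of -2.09 (adjusted p = 3.10e-04) lay at the limit and was not called under the 75th percentile scaling (-1.99) or without replicate 2 of d6 (-1.84).

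Receptors and channels through which the vessel wall answers pressors and growth factors were examined next. Of 43 genes listed, 30 were tested, of which 22 (73.3%) were higher in primary SMC, 2 higher in 3c3 d6 and 6 not called (median 3.73). 16 of the 30 had entered through primary SMC alone. Of the 14 measured in both groups, 8 were higher in primary SMC and 2 in 3c3 d6, against 10.4% and 10.2% of all genes so measured. The widest gap was that of *Pdgfrb*, the PDGF receptor β through which PDGF-BB acts on SMC. It read 13.77 and 13.71 in primary SMC and was above background on no d6 array (at least 1919-fold higher, adjusted p = 3.41e-20). *Pdgfra*, the other PDGF receptor chain, read 9.21 and 9.28 in primary SMC and 10.67, 10.25 and 10.51 at d6 (difference -1.23, SE 0.17), so of the PDGF receptors the α chain alone was above background at d6. *Agtr1a*, the angiotensin II receptor, read 11.96 and 11.95 in primary SMC and was above background on no d6 array (at least 556-fold, adjusted p = 3.95e-15). The α1D adrenergic receptor gene *Adra1d* was at least 188-fold higher in primary SMC and the vasopressin receptor gene *Avpr1a* at least 162-fold.

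The nitric oxide receptor subunits *Gucy1a1* and *Gucy1b1*, soluble guanylate cyclase, were at least 33.1-fold and at least 48.1-fold higher in primary SMC. *Kcnmb1*, the smooth muscle subunit of the large calcium-activated potassium channel, was at least 19.8-fold higher, *Kcnj8*, a pore subunit of an ATP-sensitive potassium channel of vessels, at least 64.6-fold, and *Itpr1*, the receptor that releases stored calcium, at least 18.7-fold. Caveola genes were measured in both groups in part: *Cav1* read 9.78 and 9.73 against 6.56, 5.70 and 6.10 (12.4-fold higher in primary SMC), *Cavin1* was 12.1-fold higher, and *Cav3*, the muscle caveolin, read 12.73 and 12.68 against 4.07, 3.90 and 5.42 (303-fold). The largest adjusted p of the 22 was 0.00489. *Ednra*, the endothelin A receptor, went the other way, at 4.96 and 5.11 in primary SMC and 8.35, 8.32 and 8.63 at d6 (10.5-fold higher at d6, adjusted p = 9.50e-08). *Trpc1*, a cation channel gene, was 4.03-fold higher at d6, at the limit, and was not called under the 75th percentile scaling or with quantile normalization over the 5 arrays, nor without replicate 2 of primary SMC (-1.90) or of d6 (-1.63). *Npr1*, the natriuretic peptide receptor, and *Prkg1*, the cGMP-dependent kinase, differed by 0.08 (SE 0.33) and 0.57 (SE 0.49). Of the 13 genes not tested, among them *Cacna1c*, the pore of the L-type calcium channel, *Kcnma1* and *Rgs5*, neither group was above background on all of its arrays.

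Genes of the elastic fibres and of the fibrillar collagens were among the wall matrix genes lower at d6, and collagen IV genes were higher. Of 48 matrix genes on the array, 42 were tested, and of these 34 (81.0%) were higher in primary SMC, 4 higher in 3c3 d6 and 4 not called (median 6.51). 24 of the 42 had entered through primary SMC alone. Of the 17 measured in both groups, 10 were higher in primary SMC and 3 in 3c3 d6, against 10.4% and 10.2% of all genes so measured. *Mgp*, which encodes the matrix Gla protein that keeps the wall from calcifying, read 16.66 and 16.66 in primary SMC, and no d6 array was above background (at least 14524-fold, adjusted p = 6.03e-18). *Eln*, elastin, read 13.38 and 13.35 in primary SMC and 2.95, 2.22 and 2.38 at d6, with 1 of 3 d6 arrays above background (at least 1204-fold, adjusted p = 9.69e-16). The elastin-associated genes *Loxl1*, *Lox*, *Fbln5* and *Fbn1*, encoding crosslinking enzymes, a fibulin and fibrillin 1, were higher by 2212-fold, at least 305-fold, at least 499-fold and 112-fold. *Loxl1* and *Fbn1* were above background on all 3 d6 arrays, *Fbln5* on 2 and *Lox* on none.

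Among the fibrillar collagens, *Col3a1* read 15.20 and 15.14 in primary SMC and was above background on no d6 array (at least 5169-fold, adjusted p = 1.51e-13). *Col1a2* and *Col5a2* were at least 3929-fold and at least 2213-fold higher in primary SMC. *Col1a1* was measured in both groups, at 16.03 and 15.95 against 10.78, 8.33 and 9.49 (87.8-fold, adjusted p = 2.08e-08), with the d6 arrays well apart from each other. *Col5a1* differed by 0.65 (SE 0.28) and was not called. *Col1a2* was above background on 2 of 3 d6 arrays. The largest adjusted p among the 34 genes was 0.00506. The genes higher at d6 were the basement membrane collagens *Col4a1* (16.27, 16.27 and 16.34 against 12.73 and 12.75, 11.7-fold) and *Col4a2* (9.06-fold), *Comp*, cartilage oligomeric matrix protein (24.4-fold), and *Fbln1*, fibulin 1 (at least 162-fold, with 1 of 2 primary SMC arrays above background). *Sparc* (-0.40, SE 0.21), *Loxl2* (-0.07, SE 0.56) and *Mfap5* (-1.15, SE 0.38) were not called.

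**Figure D3:**
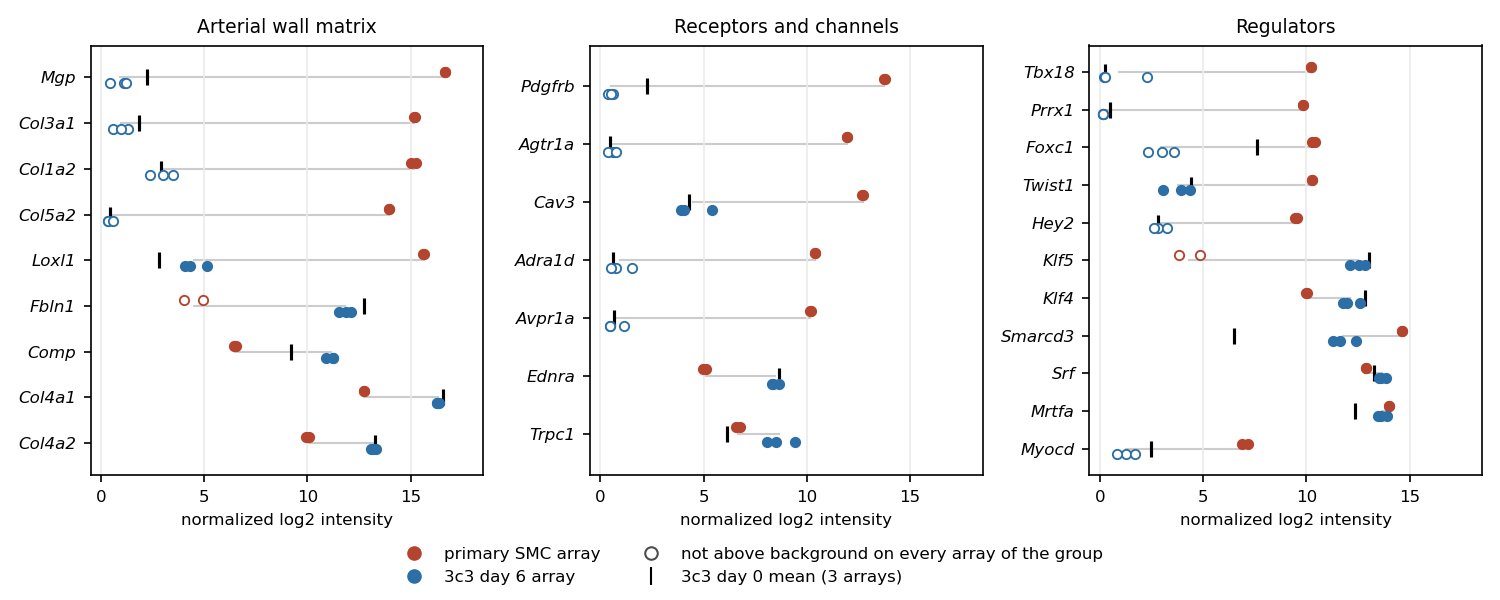
Normalized log2 intensity of regulators, receptors and channels, and wall matrix genes on the 2 primary SMC arrays (red) and the 3 d6 arrays (blue), open where the group was not above background on all of its arrays, with the mean of the 3 undifferentiated 3c3 arrays as a black bar. Most rows have both primary SMC points to the right of open d6 points, while *Klf5*, *Klf4*, *Srf*, *Ednra*, *Trpc1*, *Fbln1*, *Comp* and the collagen IV genes have d6 above primary SMC.

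Epithelial genes, among them E-cadherin and keratins, were read at d6. Of 37 epithelial genes on the array, 33 were tested, and of these 30 (90.9%) were higher in 3c3 d6 against a background of 18.8% of all genes, none was higher in primary SMC and 3 were not called (median -8.20). 26 of the 33 had entered through 3c3 d6 alone, and of the 7 measured in both groups 4 were higher in 3c3 d6. *Cdh1*, E-cadherin, read 13.33, 13.86 and 13.28 at d6 and was above background on neither primary SMC array (at least 746-fold higher at d6, adjusted p = 4.99e-18). The d0 mean was 9.47 ± 0.29 (SD, n = 3), below all 3 d6 arrays. *Krt19*, a keratin of simple epithelium, was at least 1278-fold higher at d6, *F11r*, the junctional adhesion molecule A gene, at least 1198-fold, *Cldn4*, a claudin of tight junctions, at least 1083-fold, and *Dsp*, desmoplakin of the desmosome, at least 754-fold. The keratins *Krt8* and *Krt18* were measured in both groups, with 14.63, 14.51 and 14.76 against 7.55 and 7.46 for *Krt8*, and were 139-fold and 133-fold higher at d6. *Jup*, *Pkp2* and *Esrp2* were the 3 not called, although 1 of 3 probes of *Pkp2* was called (-2.88), and the largest adjusted p of the 30 was 0.00815. At an unadjusted limma p below 0.05 and any size, all 33 were higher at d6, and the methods' t-test called none higher in primary SMC. For the 26 that entered through 3c3 d6 alone, this direction was largely set by the filter.

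Genes of primitive and visceral endoderm were also read at d6. Of 33 tested, 28 (84.8%) were higher in 3c3 d6, none higher in primary SMC and 5 not called (median -6.91). 21 had entered through 3c3 d6 alone. Of the 12 measured in both groups, 7 were higher in 3c3 d6, against 10.2% of all genes so measured. *Lama1*, the laminin α1 chain of the embryonic basement membrane, read 13.81, 14.53 and 14.78 at d6 and was above background on neither primary SMC array (at least 1375-fold, adjusted p = 2.16e-13). *Gata4*, a zinc finger factor of endoderm and heart, read 12.81, 13.08 and 13.22 at d6 and likewise was not above background in primary SMC (at least 544-fold, adjusted p = 6.85e-17). The homeobox gene *Hhex* was at least 373-fold higher, *Amn*, the endocytic receptor partner of cubilin, 377-fold, and *Apoa1*, the main apolipoprotein of HDL, at least 352-fold. *Ttr* and *Afp*, carrier proteins that visceral endoderm secretes, were at least 259-fold and at least 135-fold higher. *Apoa1* was above background on no d0 array and averaged 12.41 ± 0.80 at d6, whereas *Lama1* and *Amn* had d0 means of 15.35 ± 0.23 and 15.07 ± 0.43, above those at d6 (14.37 ± 0.50 and 13.46 ± 0.73). *Gata6*, *Apom*, *Thbd*, *Hnf4a* and *Apoc2* were not called, but 2 of 3 probes of *Gata6* (the widest at -2.76) and 1 of 2 of *Hnf4a* (-2.10) were, as was the mean over the probes of *Gata6* (-2.26). *Gata6* was also called with quantile normalization over the 5 arrays, and *Apom* without replicate 1 of primary SMC (-2.14) or replicate 2 of d6 (-2.09). The largest adjusted p of the 28 was 0.0366. At an unadjusted limma p below 0.05 and any size, 1 endoderm gene was higher in primary SMC, and the methods' t-test called none. The filter largely set the direction of the 21 genes that entered through 3c3 d6 alone.

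Some genes of the pluripotency list were still read at d6. Of 21 listed, 13 were on the array by name, and *Nanog*, *Zfp42*, *Sall4* and *Utf1* were not among them. Of the 13, 9 were tested. Of these, 7 were higher in 3c3 d6 and none in primary SMC, against 18.8% and 15.9% of all genes tested. Of the 9, 7 had entered through 3c3 d6 alone and 2 were measured in both groups, of which *Dnmt3b* was called. *Pou5f1*, the factor Oct4 for which the rMAPC lines are known, read 6.82, 7.49 and 7.97 at d6 and was above background on neither primary SMC array (at least 11.1-fold, adjusted p = 2.56e-05). The d0 mean was 11.53 ± 0.09, above all 3 d6 arrays. In Cl19 it averaged 1.13 at d6, with 1 of 3 arrays above background (Cl19 minus 3c3 -6.30, limma adjusted p = 2.26e-06). *Lin28a*, an RNA-binding protein of embryonic cells, read 13.74, 13.07 and 13.71 at d6 against 4.27 and 2.83, with 1 of 2 primary SMC arrays above background (at least 686-fold, adjusted p = 3.35e-14). *Dnmt3l* and *Dnmt3b*, which set up DNA methylation in early embryos, were at least 1135-fold and 78.3-fold higher, *Dppa4* at least 88.5-fold and *Tfap2c*, the factor AP-2γ, at least 24.2-fold. The largest adjusted p of the 7 was 2.56e-05, and no tested gene was higher in primary SMC at an unadjusted limma p below 0.05 or by the methods' t-test. That direction was largely set by the filter for the genes that entered through 3c3 d6 alone.

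Mesendoderm genes, which pattern the early embryo through the Nodal pathway, were higher at d6 in 8 of 10 tested, against 18.8% of all genes tested. Of the 10, 7 entered through 3c3 d6 alone, and 2 of the 3 measured in both groups were called. *Lefty2*, a Nodal inhibitor, read 13.26, 11.06 and 11.93 at d6 and was above background on neither primary SMC array (at least 281-fold, adjusted p = 1.15e-06), with a d0 mean of 4.16 ± 0.08. The ligands *Nodal* and *Fgf8* were at least 31.8-fold and at least 72.8-fold higher at d6, and the homeobox genes *Otx2* and *Lhx1* at least 124-fold and at least 24.4-fold. All 5 of these had d0 means below every d6 array. Among the cilia genes, 7 of 21 on the array were tested and were split. Of the 3 measured in both groups, 1 was higher in 3c3 d6 and none in primary SMC. *Foxj1*, the master factor of motile cilia, was at least 63.7-fold higher at d6 and *Tppp3*, a tubulin-binding protein, 40.4-fold, while *Dnai2*, a dynein intermediate chain, and *Tekt4*, a tektin of the axoneme, were at least 16.1-fold and at least 4.54-fold higher in primary SMC, with 1 and 2 of 3 d6 arrays above background. *Dnai2* was not called by the methods' t-test after Benjamini-Hochberg adjustment.

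Cardiac muscle genes were present at d6. Of 20 on the array, 14 were tested, of which 10 (71.4%) were higher in 3c3 d6 and 2 in primary SMC, with 8 entering through 3c3 d6 alone. Of the 5 measured in both groups, 2 were higher in 3c3 d6 and 1 in primary SMC, against 10.2% and 10.4% of all genes so measured. *Myl7*, the atrial regulatory light chain, read 13.79, 12.92 and 13.30 at d6 and was above background on neither primary SMC array (at least 672-fold, adjusted p = 7.53e-15). Its d0 mean was 1.87 ± 0.68, with 1 of 3 d0 arrays above background. *Mybpc3*, cardiac myosin-binding protein C, was at least 1126-fold higher at d6, *Nppb* and *Nppa*, the natriuretic peptides, at least 925-fold and at least 139-fold, and *Myl3* at least 48.8-fold, with 1 of 2 primary SMC arrays above background. *Nppb* and *Mybpc3* were bright at d0 as well, with means of 11.69 ± 0.05 and 10.71 ± 0.17. *Casq2*, the calcium store protein calsequestrin 2, which vascular SMC also hold, went the other way, at 11.60 and 11.65 in primary SMC and 2.96, 2.45 and 4.83 at d6 (296-fold higher in primary SMC, adjusted p = 3.64e-10), as did *Hand1*, a basic helix-loop-helix factor (at least 5.56-fold, with 2 of 3 d6 arrays above background). *Hand1* was not called by the methods' t-test after Benjamini-Hochberg adjustment, without normalization (0.92) or with normexp background correction (0.81). *Nkx2-5*, *Myh7*, *Actn2* and *Tbx5*, which define cardiac muscle, were not tested, since neither group was above background on all of its arrays.

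Skeletal muscle genes were split. 10 of 19 were tested, and 3 were higher in primary SMC and 2 in 3c3 d6, against 15.9% and 18.8% of all genes tested. Of the 6 measured in both groups, 1 was higher in 3c3 d6 and none in primary SMC. *Myh1* and *Myh2*, fast myosin heavy chains, read 11.26 and 11.25 and 10.97 and 10.98 in primary SMC and were above background on no d6 array (at least 343-fold and at least 283-fold, adjusted p = 1.67e-23 and 4.17e-14). Myosin heavy chain genes are near-identical copies, so probes of these genes can read each other's RNA, and their identity is uncertain. *Casq1* was at least 26.9-fold higher in primary SMC. *Myh3*, the embryonic heavy chain, and *Tnni1*, slow troponin I, were 13.8-fold and at least 11.5-fold higher at d6. The defining factors *Myod1*, *Myog*, *Myf5* and *Myf6* were not tested in either direction.

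**Figure D4:**
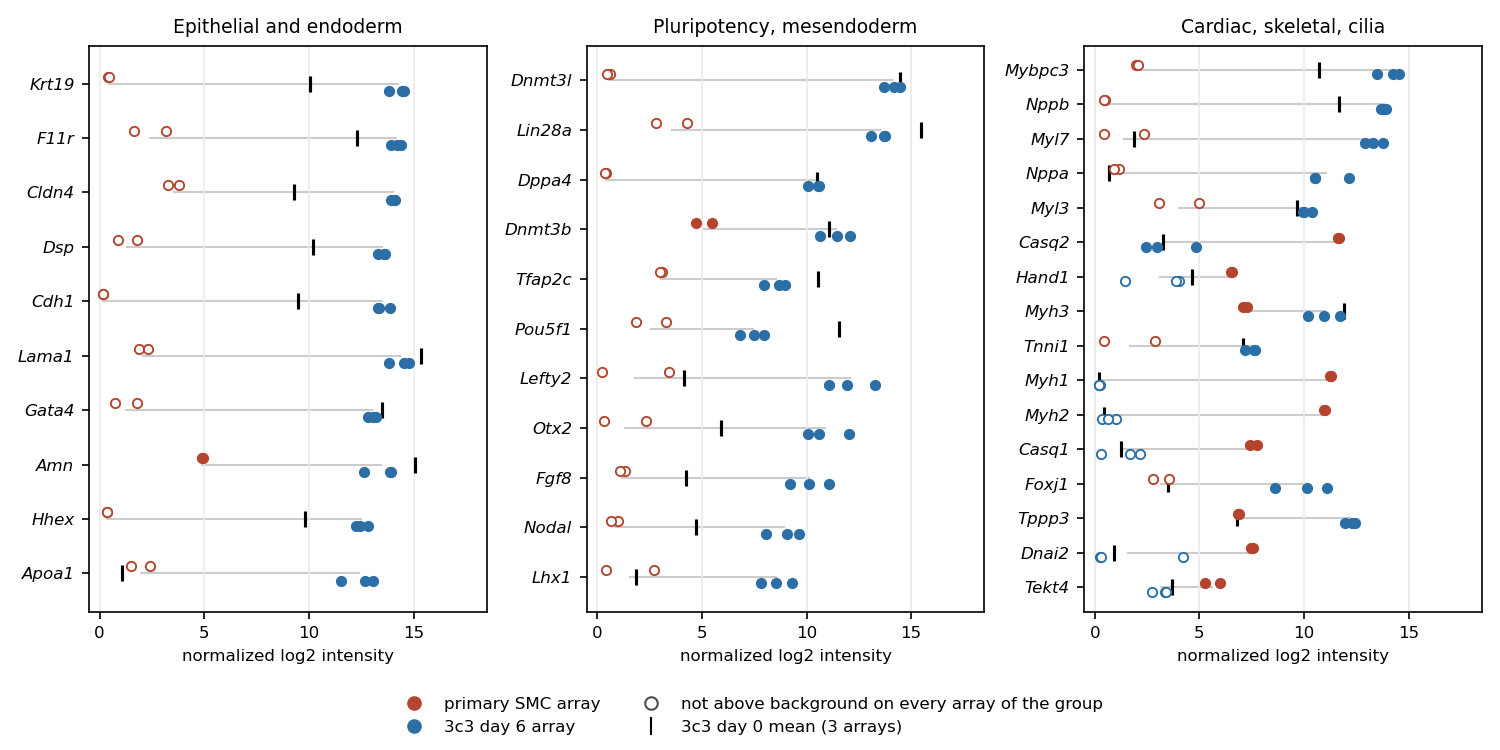
Normalized log2 intensity of the named genes of other lineages on the 2 primary SMC arrays (red) and the 3 d6 arrays (blue), open where the group was not above background on all of its arrays, with the mean of the 3 undifferentiated 3c3 arrays as a black bar. In the epithelial, endoderm, pluripotency and mesendoderm panels all d6 points lie above all primary SMC points, while *Casq2*, *Hand1*, *Myh1*, *Myh2*, *Casq1*, *Dnai2* and *Tekt4* have primary SMC above d6.

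Markers of other cell types that aortic RNA could hold were checked in the same way. Their counts, here and in the next paragraph, stand beside 15.9% of all genes tested called higher in primary SMC and 18.8% in d6. Among genes measured in both groups these shares were 10.4% and 10.2%. Of 22 endothelial genes, 10 were tested, with 3 higher in primary SMC and 6 in 3c3 d6. Of the 4 measured in both groups, 2 were higher in primary SMC and 1 in 3c3 d6. The summed log2 level of the list ran from 12.50 to 12.54 in primary SMC and from 11.94 to 12.23 at d6. The defining markers *Pecam1*, *Cdh5* and *Kdr* were not above background on all arrays of either group. *Nos3*, endothelial nitric oxide synthase, *Sox18* and *Ptprb* were at least 4.04-fold, 5.32-fold and 6.41-fold higher in primary SMC, and *Plvap*, *Mmrn2*, *Tie1*, *Vwf* and *Flt1* were at least 55.2-fold, at least 21.5-fold, at least 5.27-fold, at least 3.85-fold and 6.20-fold higher at d6. *Nos3* was above background on 2 of 3 d6 arrays and *Vwf*, the von Willebrand factor, on 1 of 2 primary SMC arrays, and *Vwf* was not called without replicate 2 of primary SMC (-1.81), with the floor (-1.95) or by the methods' t-test after adjustment. Without normalization, *Nos3*, *Sox18* and *Ptprb* were not called (0.56, 0.17 and 0.31, at a median of -2.11 over probes). With normexp background correction they were not called either (0.53, 1.07 and 1.92), nor were *Tie1* (-1.17) and *Vwf* (-0.79) at d6. Of 16 adipocyte genes, 5 were tested, and the 2 of them measured in both groups were higher in primary SMC. *Scd*, *Cidea* and *Pck1* were 22.6-fold, 10.2-fold and at least 6.98-fold higher in primary SMC, *Pparg* and *Cidec* at least 8.25-fold and at least 2.77-fold higher at d6, and *Adipoq*, *Plin1* and *Fabp4*, which define fat cells, were above background on no array of either group. *Pck1* was above background on 2 of 3 d6 arrays. *Scd* was not called by the methods' t-test after adjustment, and *Cidec* was not called with the floor (-1.47). Without normalization *Cidea* (1.07) and *Pck1* (0.76) were not called. With normexp *Pck1* (1.01), *Pparg* (-1.47) and *Cidec* (-0.63) were not called. The adipocyte sum was 12.07 on both primary SMC arrays and ran from 8.56 to 9.42 at d6.

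Of 21 blood and leukocyte genes, 7 were tested. Of the 4 measured in both groups, 2 were higher in primary SMC and 2 in 3c3 d6. *Ptprc*, the leukocyte antigen CD45, *Cd74*, *C1qb* and *Cd14* were at least 4.86-fold, 18.02-fold, at least 7.70-fold and 6.12-fold higher in primary SMC, and *Csf1r*, *Lyz2* and *Cd68* 24.4-fold, at least 2.02-fold and 4.54-fold higher at d6. *Lyz2* was not called with the floor (-1.01), nor *Cd68* under the 75th percentile scaling (-1.90). With normexp background correction *Ptprc* (0.51), *C1qb* (0.77), *Lyz2* (-0.51) and *Cd68* (-1.19) were not called. Without normalization *Cd74* (1.80) and *Cd14* (0.26) were not called, at a median of -2.11 over probes. The sum of the list ran from 10.80 to 10.84 in primary SMC and from 9.90 to 11.07 at d6, and *Hbb*, a globin of red cells, was above background on no array of either group. Genes of adventitial fibroblasts were called in 6 of 11 tested, of which *Lum* (at least 187-fold), *Dcn* (at least 8.98-fold), *Serpinf1* (485-fold), *Igfbp6* (9.81-fold) and *Scara5* (at least 4.32-fold) were higher in primary SMC and *Pi16* (at least 27.7-fold, with 1 of 2 primary SMC arrays above background) at d6. Of the 7 fibroblast genes measured in both groups, 2 were higher in primary SMC and none in 3c3 d6. *Dcn* (1.09) and *Scara5* (0.48) were not called with normexp, nor *Igfbp6* (1.42) without normalization. The sum of that list ran from 15.15 to 15.16 in primary SMC and from 14.73 to 15.09 at d6, and *Lum*, *Dcn* and *Mfap5* are matrix genes as well. Of the Schwann and neuronal list, 8 of 18 were tested, and 2 were higher in primary SMC, among them *Ncam1* (at least 13.2-fold, with 1 of 3 d6 arrays above background), and 5 at d6, among them *Sox10*, *Dcx* (at least 2.05-fold), *Nefm* (at least 1.43-fold) and *Nes*. Of the 3 measured in both groups, 2 were higher in 3c3 d6 and none in primary SMC. *Dcx* and *Nefm* were not called with the floor (-1.03 and -0.51). With normexp *Ncam1* (1.57), *Sox10* (-1.57), *Dcx* (-0.65) and *Nefm* (-0.34) were not called. *Sox10*, at 6.07 and 5.96 against 9.38, 7.49 and 8.03, was not called when the 2 primary SMC arrays were averaged to 1 sample (limma adjusted p = 0.0510), by the methods' t-test after adjustment, without replicate 2 of primary SMC (-2.23) or without replicate 1 of d6 (-1.75). The part of other cell types in the differences was not tested.

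Few genes of cell division and no housekeeping gene passed the limit. Of 34 cell cycle genes tested, 31 were not called, and their median was -0.43. Over all genes tested, 15.9% were higher in primary SMC and 18.8% at d6. *Tk1*, thymidine kinase, was 8.69-fold higher in primary SMC, and *Ccne2*, cyclin E2, and *Kif11*, a spindle motor, were at least 10.7-fold and at least 2.70-fold higher at d6, both above background in 3c3 d6 alone, *Kif11* not being called with the floor (-1.43). *Mki67*, the Ki-67 antigen of dividing cells, differed by -0.42 (SE 0.43). None of the 14 housekeeping genes tested was called by limma or by the methods' t-test, while 11 had an unadjusted limma p below 0.05 at any size, 6 of them higher in primary SMC, and their differences ran from -0.88 for *Pgk1* to 1.95 for *B2m* (median -0.07). 1 of 4 probes of *B2m* was called (2.41), and *B2m* was called under the 75th percentile scaling (3.03) and with quantile normalization over the 5 arrays (2.11). Hox genes, which mark position along the body axis, were called in all 15 tested of 31 on the array, 12 higher in primary SMC and 3 at d6, but 14 of the 15 had entered through 1 group alone. *Hoxb2*, *Hoxa4*, *Hoxa7*, *Hoxd9* and *Hoxb7* were at least 61.6-fold, at least 35.6-fold, at least 30.5-fold, at least 18.1-fold and 18.2-fold higher in primary SMC, with 2 of 3 d6 arrays above background for *Hoxa4* and *Hoxa7* and 1 for *Hoxd9*. *Hoxc9*, *Hoxc12* and *Hoxc11* were at least 26.04-fold, at least 6.87-fold and at least 3.06-fold higher at d6, with 1 of 2 primary SMC arrays above background for *Hoxc9* and the call of *Hoxc11* lost with the floor (-1.61).

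Among genes above background on all 5 arrays, the largest difference was that of *S100a4*, a calcium-binding protein of motile mesenchymal cells, at 17.08 and 17.09 in primary SMC and 4.06, 3.67 and 4.50 at d6 (8217-fold, adjusted p = 5.33e-17). After *Loxl1*, the next were *S100a16* (789-fold), *Gsta1*, a glutathione transferase (689-fold), *Serpinf1*, *Cav3*, *Casq2*, *Lgals3bp*, a galectin-binding protein (268-fold), and the transcription factor genes *Cebpd* (265-fold) and *Nfix* (245-fold). In the other direction the largest was that of *Rhox5*, an X-linked homeobox gene of the reproductive tract and extraembryonic tissue, at 5.61 and 5.71 in primary SMC and 16.00, 15.96 and 16.02 at d6 (1288-fold, adjusted p = 4.01e-22). It was followed by *Areg*, the EGF receptor ligand amphiregulin (601-fold), *Gsta2* (569-fold), *Apoe*, apolipoprotein E (509-fold), *Ctla2a*, a cathepsin inhibitor (483-fold), *Kcnk5*, a potassium channel (454-fold), *Amn*, *Atp9b*, a lipid flippase (309-fold), *Srd5a1*, steroid 5α-reductase (276-fold), and *Svs4*, a seminal vesicle protein (269-fold). *Gsta1* and *Gsta2* lay on opposite sides, and as paralogs their probes may read each other's RNA. Since these 20 were picked for size, their values are a description.

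Along the course of 3c3, several patterns of level were seen among the genes with a gap. The levels are given side by side and were not tested over time, since d6 is part of both comparisons. *Tagln* averaged 8.83 ± 0.19 at the start, 12.14 ± 0.35 after 2 days, 14.06 ± 0.13 after 4 days and 14.78 ± 0.40 at the end (SD, n = 3 each), with most of the distance to primary SMC covered by d4. *Tpm2* went from 8.54 ± 0.70 to 14.48 ± 0.91, short of the primary SMC mean of 17.46. *Lmod1* was above background on no d0 array and averaged 4.46 ± 0.65 at d6, against 9.52 in primary SMC. *Myh11*, with the d0 and d6 means given above, stayed far below primary SMC, and *Eln* was above background on 2 of 3 arrays at d0 and 1 of 3 at d6, so no direction is given for it. *Cdh1* and *Myl7* had d6 levels above d0 and lay farther from primary SMC at d6 than at the start. *Foxc1* and *Zeb1* went from 7.62 ± 0.23 and 6.36 ± 0.11 at d0 down to 2.97 ± 0.63 and 3.62 ± 0.53 at d6, away from primary SMC (10.34 and 9.29). *Itga7* likewise went from 13.05 ± 0.36 to 11.25 ± 0.24, against 14.26 in primary SMC. *Pou5f1*, *Lama1* and *Amn*, with the levels given above, were lower at d6 than d0 and so nearer to primary SMC.

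**Figure D5:**
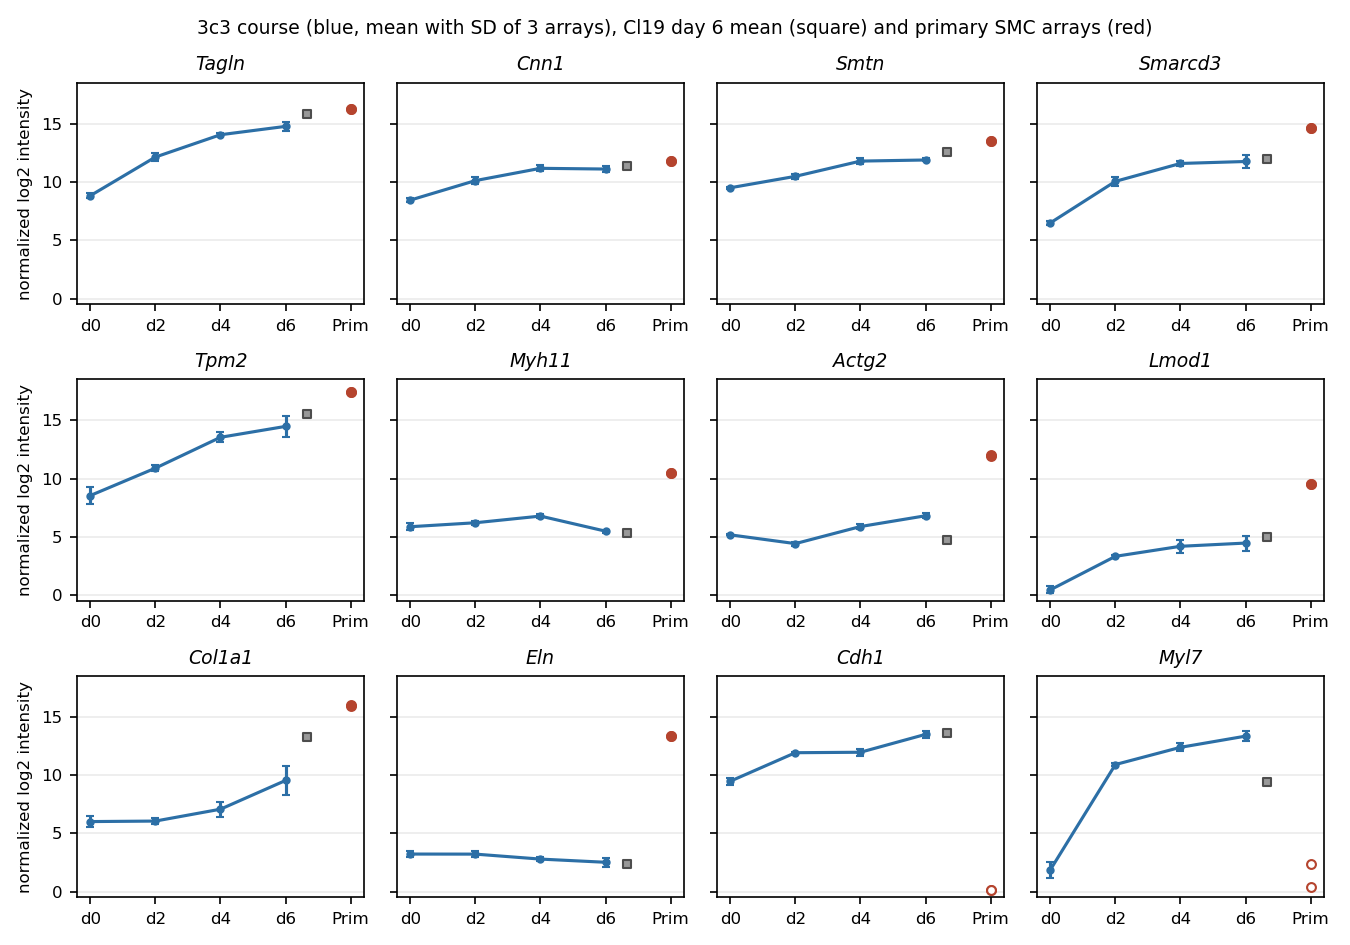
Mean normalized log2 intensity with SD of 12 genes on the 3 arrays of 3c3 on each of d0, d2, d4 and d6 (blue), the mean of Cl19 on d6 (square) and the 2 primary SMC arrays (red, open where not above background on both). *Tagln*, *Cnn1*, *Smtn* and *Smarcd3* lie closer to primary SMC at d6 than at d0, *Myh11* and *Eln* lie far below primary SMC at both d0 and d6, and *Cdh1* and *Myl7* lie farther from primary SMC at d6.

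The gap to primary SMC at d6 was not the same in the other clone for part of these genes. The test of that difference is Cl19 d6 against 3c3 d6 in the same fit, by which 452 genes (4.20%) were higher in Cl19 and 501 (4.66%) in 3c3. Of the 34 contractile genes, 1 was higher in Cl19 (*Sncg*) and 2 in 3c3 (*Actg2* and *Itga7*), so that *Actg2* had a wider gap to primary SMC in Cl19 (4.76 ± 0.68 in Cl19 against 6.81 ± 0.20 in 3c3, SD, n = 3, difference -2.05, adjusted p = 6.94e-05). Of the 42 matrix genes, 12 were higher in Cl19 and 4 in 3c3. *Loxl1* read 11.15 ± 1.00 in Cl19 against 4.50 ± 0.55 in 3c3 (difference 6.65, SE 0.80, adjusted p = 3.02e-06), so its gap to primary SMC was narrower in Cl19. Of the 10 mesendoderm genes, 7 were higher in Cl19, and of the 33 endoderm genes 11 were higher in 3c3 and 3 in Cl19. The lines lay on separate slides and were scanned on separate days, so line, slide and scan day cannot be told apart.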

How the data were processed

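RNA of 26 samples was hybridised to 1-colour Agilent Whole Rat Genome 4x44K arrays. The deposited intensity values were made by the authors with Agilent Feature Extraction 10.1.1.1, which subtracts local background, corrects trends over the slide and writes a processed signal per spot. The deposited log2 table was found to hold the log2 of the same processed signal, with no normalization between arrays. Probe coordinates per the file headers are on rn4. The study's methods name quantile normalization, which was repeated here.

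From the processed signal, outlier spots were set to missing, log2 values were quantile-normalized over all 26 arrays (control spots left out), and spots of a probe were averaged. Of 41012 probes, 22523 carried a gene symbol, 16706 of them through RefSeq accession, giving 17310 genes. Symbols came from the RefSeq table of GRCr8. Tests used limma 3.58.1 in R 4.3.3 with 9 groups and the contrast primary SMC minus 3c3 d6, Benjamini-Hochberg adjusted over the 20141 probes for which all arrays of at least 1 of these 2 groups were well above background. Of the 5 arrays, between 0 and 2 probes had a missing value. The count of arrays limits the precision. Calls needed an adjusted p below 0.05 and a log2 difference of 2 or more. The genes and the 19 lists were chosen with earlier results of these data known. Named were the 5 markers, all called contractile genes, up to 5 called genes a list and direction with the largest difference, and the 10 largest each way among genes above background on all 5 arrays. Other genes in the text illustrate their list and were picked after their values were seen. Some listed genes enter the counts but are not reported here by name or value. The authors' replicate numbers were checked for pairing: deviations of same-numbered primary SMC and d6 arrays correlated at 0.04 and 0.05, under the 0.1 needed, so no pairing was used. The code was tested on simulated data.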

Additional observations from a re-analysis of the deposited data

Results flagged for a closer look

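For 58 of the tested genes described above, chosen by rule or picked after their values were seen, the difference between the 2 clones at d6, which equals the difference of their gaps to primary SMC, was at least 2 on the log2 scale with an adjusted p below 0.05 by limma over all probes tested. Each value is Cl19 d6 minus 3c3 d6 on the normalized log2 scale, from 3 arrays of each clone. Among the contractile genes and regulators, *Sncg* (3.67) was higher in Cl19, and higher in 3c3 were *Actg2* (-2.05) and *Itga7* (-2.76). Among receptors and wall matrix, higher in Cl19 were *Agtr1a* (3.69), *Col5a2* (4.11) and *Loxl1* (6.65), and higher in 3c3 were *Ednra* (-2.83), *Fbln1* (-3.11) and *Col4a2* (-2.25). Among endoderm, epithelial and pluripotency genes, higher in 3c3 were *Lama1* (-5.74), *Amn* (-2.07), *Apoa1* (-2.95), *Krt19* (-2.54) and *Dnmt3l* (-2.68). Among mesendoderm and cilia genes, higher in Cl19 were *Lefty2* (3.75), *Otx2* (3.55), *Nodal* (2.03), *Lhx1* (3.13) and *Foxj1* (3.58), and *Tppp3* (-2.75) was higher in 3c3. Among cardiac and skeletal muscle genes, higher in Cl19 were *Myl3* (2.13) and *Tnni1* (5.78), and higher in 3c3 were *Mybpc3* (-3.86), *Myl7* (-3.90) and *Myh3* (-4.96). Among endothelial, adipocyte and blood genes, *Nos3* (5.11) was higher in Cl19, and higher in 3c3 were *Ptprb* (-2.04), *Plvap* (-3.92), *Tie1* (-2.97), *Cidea* (-3.56), *Pparg* (-5.02), *Cd74* (-4.42) and *Csf1r* (-4.84). Among fibroblast, neuronal and Hox genes, higher in Cl19 were *Lum* (6.33), *Dcn* (2.59), *Ncam1* (3.78), *Sox10* (2.54) and *Nefm* (2.54), and higher in 3c3 were *Pi16* (-4.58), *Dcx* (-3.81) and *Hoxa4* (-3.27). Among the genes outside the rule, higher in Cl19 were *Fbln5* (2.94) and *Col1a1* (3.73), and higher in 3c3 were *Pou5f1* (-6.30), *Cav1* (-4.21), *Cavin1* (-2.24), *Mfap5* (-5.89), *Gata6* (-2.13), *Thbd* (-4.40) and *B2m* (-2.64). Among the genes with the largest gaps, *S100a16* (6.70) was higher in Cl19, and higher in 3c3 were *Gsta1* (-2.17), *Areg* (-3.96), *Gsta2* (-4.30), *Ctla2a* (-2.76), *Kcnk5* (-3.46), *Srd5a1* (-4.35) and *Svs4* (-8.25). Of the 58 genes, 15 were not well above background on all 3 arrays of 1 or both clones, and their values are not bounded there. Clone, slide and scan day cannot be told apart, and groups of 2 and 3 arrays are too small to look for single arrays that stand apart.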

How the results depend on the processing

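Calls rested on the scale more than on single arrays. Without normalization the median over probes tested was -2.11 and 1098 probes were called higher in primary SMC and 10429 in 3c3 d6, against 3831 and 3893. With normexp background correction the counts were 1352 and 1407, at a log2 limit of 1 they were 6234 and 6284, and at a limit of 3 they were 2115 and 2562. Under the 75th percentile scaling they were 4380 and 3371. Leaving out 1 array gave 3729 to 4098 and 3837 to 5045 probes, and 15 to 16 contractile genes. Probes detected in primary SMC only ran from 797 to 1033 and those in 3c3 d6 only from 2541 to 4951, the highest without replicate 3 of d6. Counting a probe as present on most arrays gave 1194 and 4989, and the scanner's positive-and-significant call gave 1502 in 3c3 d6 only. Between the clones at d6, 497 probes were called with normexp against 1548.

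With the replicate number as a block, 3864 and 3887 probes and 15 contractile genes were called, and no call of the 196 genes tracked changed (*Loxl2*, not called, turned to 0.030). The numbers did not pair the arrays. Without normalization *Cnn1* (-1.28), *Smtn* (-0.038), *Tpm1* (-0.98), *Cald1* (-2.16), *Csrp1* (-1.09), *Pdlim3* (-0.46), *Pdlim7* (-1.34) and *Vcl* (-0.71) changed sign; relative to that median they were 0.83, 2.07, 1.13, -0.06, 1.02, 1.65, 0.76 and 1.40. So did *Mrtfa* (-1.09), *Npr1* (-2.17), *Prkg1* (-1.78), *Col5a1* (-0.93), *Hnf4a* (-1.80) and *Apoc2* (-0.60). Under the 75th percentile scaling *Tpm4* was 0.14, *Sparc* 1.28 and *Loxl2* 0.14. With the mean over probes *Srf* was 0.62, *Prkg1* -0.70 and *Hnf4a* -0.93. *Npr1* and *Loxl2*, both near 0, also changed sign without the slide of 3c3 replicate 3 (-0.029 and 0.10), and leaving out 1 array at a time they ran from -0.084 to 0.34 and from -0.49 to 0.20. Of the 196 genes, 41 lost their call with normexp, 18 without normalization, 10 with a floor at the lowest signal above background, 5 by the methods' t-test after Benjamini-Hochberg and 1 (*Sox10*) with the primary SMC arrays averaged. Among the 41 were *Myocd* (1.45), *Mylk* (1.19), *Itga8* (1.62), *Kcnmb1* (1.78), *Itpr1* (1.56) and *Pou5f1* (-1.63). Averaging and leaving out the array labelled Cl19 d2 replicate 1 were chosen after seeing the data. The cause was not tested. Signal over background limits the folds of dim genes.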
